A study of Mus musculus with 9 samples.

Results

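Collagen chains were described across 9 poly(A) RNA-seq libraries of 3T3-L1 cells, a mouse fibroblast line that turns into fat-storing adipocytes when given a hormone cocktail. The chains were the protein-coding genes whose symbol has the form Col, a type number, a and a chain number, and 44 of the 54532 genes in the count table met this rule. The Undifferentiated group (n = 3) was held at confluence for 3 days in medium with calf serum. The Differentiated group (n = 3) then received an adipogenic medium with fetal bovine serum that held insulin at 10 μg/mL, rosiglitazone at 1 μM, IBMX (a phosphodiesterase inhibitor) at 0.5 mM and dexamethasone at 1 μM. The Lysfree group (n = 3) received that cocktail in a medium to which no lysine was added. All groups came from a single cell line, and no undifferentiated group without lysine was included. Serum and the basal DMEM product changed together with the cocktail, so their effects cannot be told apart. The study describes 3 days in the cocktail media before collection, and its text gives no collection time for the Undifferentiated cells. Time in culture may thus also differ between them and the other groups. The labels do not say that the libraries of a group came from separate cultures, and p-values then measure the spread between these libraries, which may be technical.

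A collagen molecule is a triple helix of 3 chains, each built from repeats of glycine and 2 further residues. Fibrillar collagens form the tensile fibres of connective tissue, type IV forms the sheet of basement membranes, FACIT collagens sit on fibril surfaces, type VI forms beaded filaments, and network collagens form lattices. Lysines of the chains are hydroxylated inside the cell and oxidised outside it, and these residues hold the cross-links of the fibres. Preadipocytes are fibroblast-like and secrete a fibrillar matrix, while mature adipocytes are each wrapped in a basement membrane and a type VI mesh.

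Of the 44 chains, 26 had a mean of at least 1 CPM over the 9 libraries, where CPM is the read count scaled to the library total. The other 18 had at most 33 counts in any library, and 2 of them (Col13a1 and Col26a1) had no count in any. Library totals ranged from 15880144 to 21806693 counts, at which 3 counts correspond to 0.138 to 0.189 CPM. Collagen chains took 6.05% to 6.59% of all counts in the Undifferentiated libraries, 3.12% to 3.30% in the Differentiated libraries and 2.25% to 2.55% in the Lysfree libraries. The 3 ranges did not overlap. In bulk RNA, fewer cells that express a gene and less RNA per cell cannot be told apart.

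Lysfree 1 stood apart from the other Lysfree libraries. The chi-square per degree of freedom between count profiles was 43.3 and 44.4 for its pairs, against 2.77 between Lysfree 2 and 3 and 2.97 to 12.3 within the other groups. Among the 26 chains, its FPKM (fragments per kilobase of gene, scaled to library size) ranged from 0.444 times the mean of Lysfree 2 and 3 for Col7a1 to 1.04 times for Col3a1. Chains with a high GC content tended to be the low ones, and Spearman's rho between transcript GC and this ratio was -0.67 over the 26 chains. Exceptions included Col6a2 (59.8% GC) at 0.932 and Col23a1 (55.1% GC) at 0.466. The rho was -0.63 over 11292 genes, so the deviation was shared with the rest of the transcriptome. Values without Lysfree 1 are given below beside the calls and directions that changed without it.

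**Figure D1:**
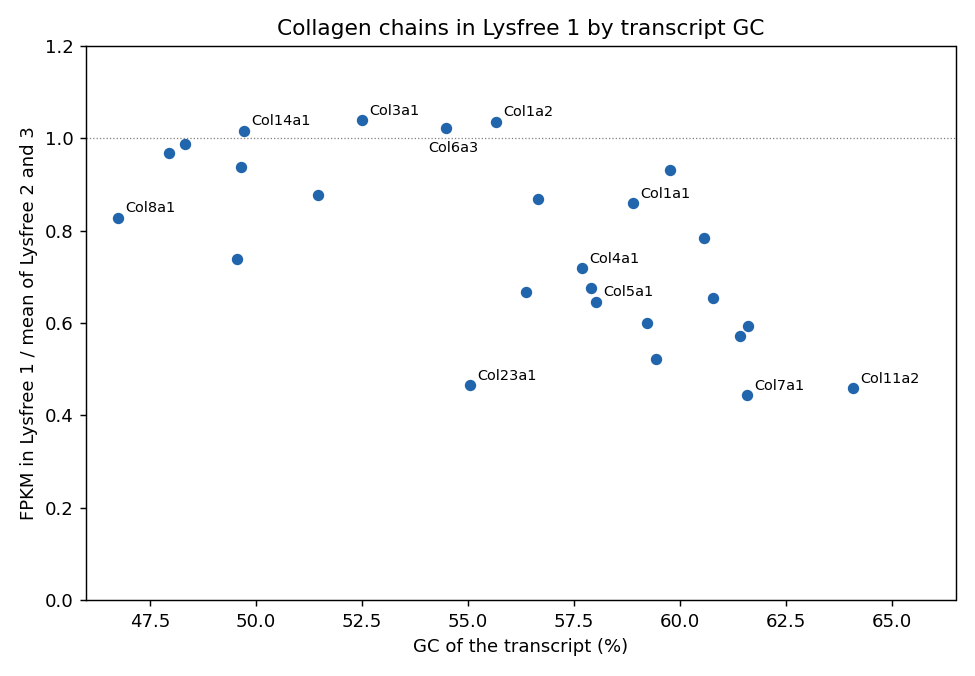
Each point is 1 of 26 collagen chains: GC of its transcript (%) against its FPKM in Lysfree 1 divided by the mean FPKM of Lysfree 2 and 3 (dotted line, equal). Col3a1 (52.5% GC) and Col1a2 (55.7%) lie at 1.04, whereas Col7a1 (61.6%) lies at 0.444.

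The labelled state of the cells was checked against marker genes. The 8 adipocyte markers summed to 298 to 378 FPKM in Undifferentiated, 6469 to 6782 in Differentiated and 234 to 311 in Lysfree libraries, with Lep, the leptin gene, at 0 in all Lysfree libraries. All 8 were called higher in Differentiated than in Undifferentiated cells and lower in Lysfree than in Differentiated cells. The 7 fibroblast and preadipocyte markers summed to 1395 to 1493, 519 to 530 and 1530 to 1591 FPKM, and 4 myofibroblast and smooth muscle markers to 57.0 to 58.0, 2.61 to 3.28 and 23.02 to 24.7 FPKM. Within the fibroblast list, Fn1, a matrix gene, averaged 380.3, 58.6 and 719 FPKM and carried much of the Lysfree sum, while Pdgfra (43.7, 6.94 and 12.9 FPKM) and Dlk1 (269.9, 30.3 and 65.2 FPKM) were called lower in Lysfree than in Undifferentiated cells. The list's median log2 fold change in that comparison was -0.59. The myofibroblast sum was mostly Acta2 (57.3, 2.40 and 23.6 FPKM). In that list Tagln was not called, and Myh11 (0.0453, 0.279 and 0.0229 FPKM) was called higher in Differentiated than in either other group or not called. The 4 chondrocyte markers summed to 26.7 to 32.4, 8.08 to 9.41 and 27.0 to 29.0 FPKM, with Acan at 0 throughout. This sum was mostly Sox9 (28.6, 8.65 and 27.9 FPKM), while Comp (0.784, 0.235 and 0.0532 FPKM) was called lower in all 3 comparisons. Macrophage markers stayed at or below 5.01 FPKM, epithelial at or below 1.72 and endothelial at or below 0.272, with Adgre1, Itgam and Epcam at 0 in every library. The part of these cell states in the collagen values below was not tested.

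The genomic sequence just upstream of 4 chains is shown first, because these chains, chosen after their values were seen, moved in opposite ways in Differentiated cells. Col3a1 and Col11a1 were lower in both cocktail groups. Col6a3 and Col15a1 were higher in Differentiated and lower in Lysfree cells than in both other groups. Each line gives the 250 bases before the RefSeq transcription start (build GRCm38.p6), 5′ to 3′ on the strand of the gene, with no annotated exon in the window. Capitals mark the motifs searched on both strands, which were CCAAT (the CCAAT box), TATAAA (the TATA box), GGGCGG (the GC box) and TGACGTCA (the cyclic AMP response element). ATTGG is the reverse form of CCAAT.
Col3a1 (chr1:45311288-45311537, plus strand): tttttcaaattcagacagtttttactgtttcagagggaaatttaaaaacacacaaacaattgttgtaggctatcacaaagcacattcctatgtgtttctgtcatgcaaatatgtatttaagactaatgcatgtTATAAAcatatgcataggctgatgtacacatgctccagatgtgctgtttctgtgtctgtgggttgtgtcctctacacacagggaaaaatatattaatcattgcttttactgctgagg
Col11a1 (chr3:114030290-114030539, plus strand): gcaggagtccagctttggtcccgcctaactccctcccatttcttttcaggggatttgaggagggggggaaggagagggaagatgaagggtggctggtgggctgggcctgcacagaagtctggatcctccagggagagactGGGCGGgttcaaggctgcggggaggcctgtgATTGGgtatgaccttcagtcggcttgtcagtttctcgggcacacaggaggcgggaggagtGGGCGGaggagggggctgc
Col6a3 (chr1:90843972-90844221, minus strand): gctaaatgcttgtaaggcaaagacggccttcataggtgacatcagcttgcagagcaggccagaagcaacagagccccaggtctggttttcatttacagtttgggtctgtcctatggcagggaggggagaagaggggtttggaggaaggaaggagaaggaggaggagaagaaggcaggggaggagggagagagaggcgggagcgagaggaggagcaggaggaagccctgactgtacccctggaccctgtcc
Col15a1 (chr4:47207762-47208011, plus strand): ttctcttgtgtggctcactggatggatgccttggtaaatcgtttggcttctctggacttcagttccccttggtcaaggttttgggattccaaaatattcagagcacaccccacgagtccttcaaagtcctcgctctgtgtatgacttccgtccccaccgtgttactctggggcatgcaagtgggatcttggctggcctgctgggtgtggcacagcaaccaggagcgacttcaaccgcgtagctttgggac
Col3a1 held 1 TATAAA, Col11a1 held 1 CCAAT match and 2 GGGCGG matches, and neither Col6a3 nor Col15a1 held any of the 4 motifs. Other chains broke this contrast. Col7a1, higher in Differentiated cells, held 1 CCAAT and 1 GGGCGG match, and Col28a1, lower in those cells, held none. Of 38 upstream windows of 35 chains with a RefSeq entry, 13 held the CCAAT box, 5 the TATA box, 22 the GC box and 0 the cyclic AMP response element. Among all 32851 promoter windows of the same length the shares were 33.8%, 12.4%, 32.7% and 1.55%. The last guanines of ATTGG can also be the first of GGGCGG, so these motifs may overlap. A match is a description of letters in the window only.

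What the adipogenic medium changed was asked by comparing Differentiated with Undifferentiated cells. A gene was called changed at an adjusted p under 0.05 and a fold change of at least 2 in edgeR's quasi-likelihood test over all genes with a count. Of 41 chains tested, 4 were called higher and 17 lower, and 20 were not called. Over all 24402 genes tested, 10.4% were called higher and 11.4% lower (21.8% in either direction). The median log2 fold change was -1.24 over the 26 chains above 1 CPM, against -0.0085 over genes that passed edgeR's filter on low counts. Their values ran from -5.24 for Col14a1 to 2.30 for Col15a1, with no chain between Col27a1 (-1.85) and Col5a1 (-0.64). The 26 were chosen on the mean over all 9 libraries, so chains scarce in Differentiated libraries, such as Col14a1, are among them. Over all 41 chains tested the median was -1.11, against 0.019 over all genes tested. FPKM ranges of the groups did not overlap for 30 of 44 chains, and over all genes tested for 50.9%. With no fold threshold, 9 chains were higher and 21 lower at an adjusted p under 0.05, where 46.1% of all genes tested passed in either direction.

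The effect of leaving lysine out was asked against Differentiated cells, and the joint effect of cocktail and lysine lack against Undifferentiated cells. Lysfree against Undifferentiated gave 17 chains lower and 0 higher of 42 tested, where 8.76% and 5.52% of 23994 genes were called lower and higher. With all libraries included, no chain was called higher by edgeR, DESeq2 or limma. In these fits 0 reached an unadjusted p under 0.05 in that direction by any of these tools. Lysfree against Differentiated gave 8 chains higher and 9 lower of 40 tested, where 8.14% and 10.5% of 24130 genes were called. Without Lysfree 1 the counts were 16 lower and 0 higher against Undifferentiated cells, and 7 higher and 9 lower against Differentiated cells. FPKM ranges did not overlap for 28 of 44 chains against Undifferentiated cells (43.5% of all genes tested) and for 25 of 44 against Differentiated cells (46.6%). With no fold threshold, 27 chains were lower against Undifferentiated cells (35.1% of all genes tested passed in either direction), and 10 were higher and 12 lower against Differentiated cells (38.5%). Median log2 fold changes over the 26 chains were -1.15 and -0.20, against 0.025 and 0.033 over genes passing the filter. Over all chains tested the medians were -1.15 and 0.060, against -0.015 and -0.058 over all genes tested. The 3 comparisons share libraries in pairs, so their values are given side by side and are not independent of each other.

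**Figure D2:**
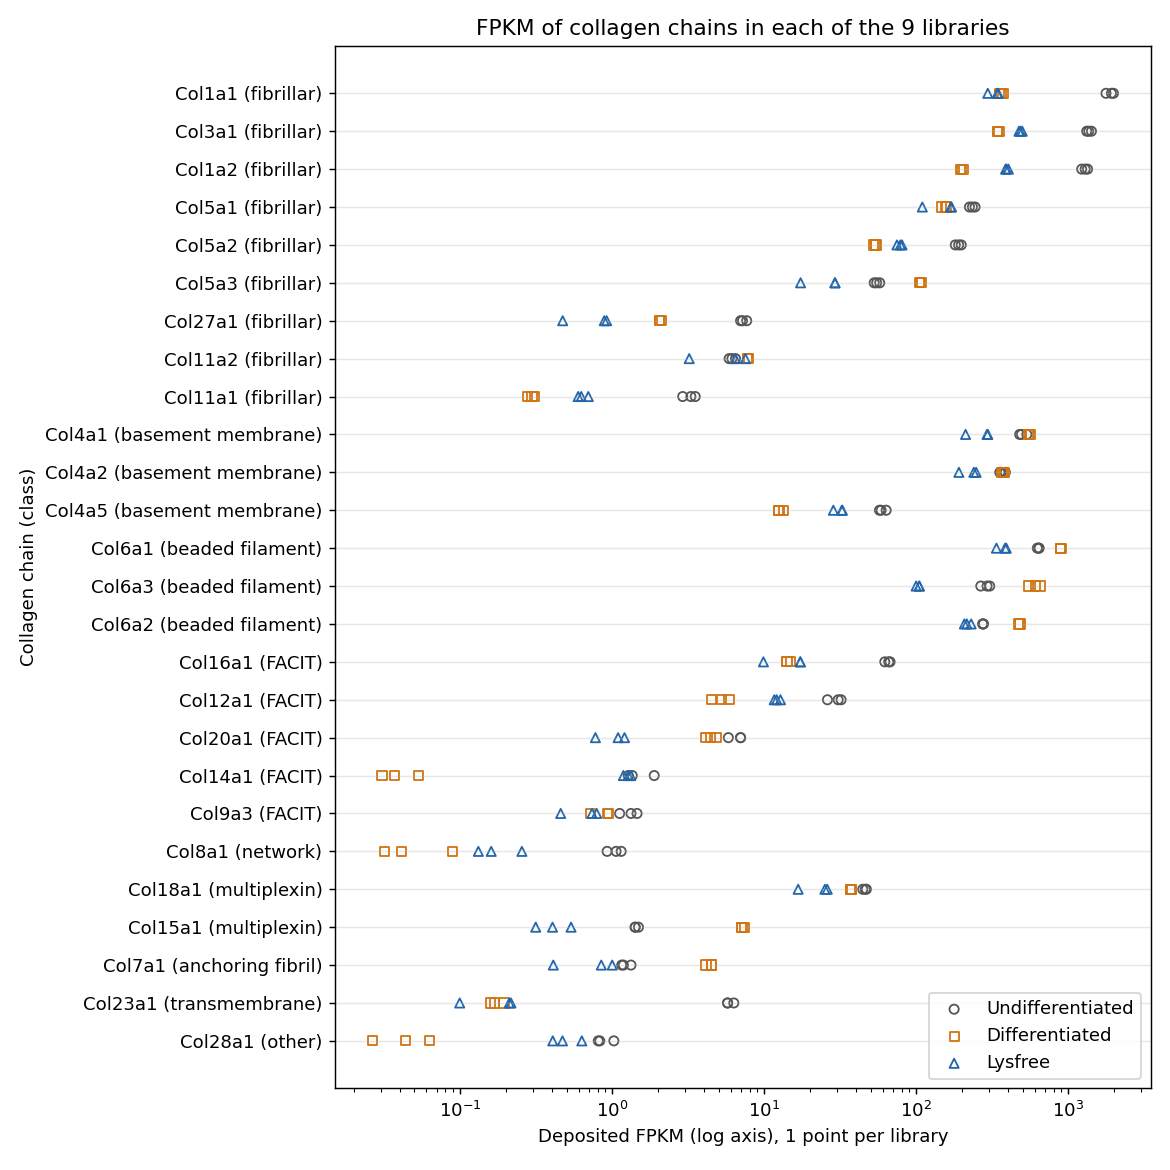
Deposited FPKM on a log axis for the 26 collagen chains above 1 CPM, by class, with 1 point per library (circles, Undifferentiated; squares, Differentiated; triangles, Lysfree). Col1a1 lies at 1766 to 1977 in Undifferentiated libraries and at 295 to 371 in the other 6, while Col6a3 lies highest in Differentiated libraries (544 to 649.9).

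Fibrillar collagens carried the largest decrease in summed FPKM, from 5028 ± 207 in Undifferentiated to 1229 ± 14.9 in Differentiated and 1464 ± 56.4 in Lysfree cells (SD, n = 3). Of 11 fibrillar chains, 7 fell in Differentiated and 7 fell in Lysfree cells against Undifferentiated cells (11.4% and 8.76% over all genes). None was called higher in either (10.4% and 5.52%). Between Lysfree and Differentiated cells 2 were higher and 2 lower (8.14% and 10.5%). Col1a1, the major chain of type I collagen (chr11:94936224-94953042, plus strand, mm10), measured 1977, 1766 and 1917 FPKM in the Undifferentiated libraries, 360.3, 371 and 354 in the Differentiated libraries and 295, 341 and 345 in the Lysfree libraries. Both cocktail groups thus lay far below the Undifferentiated range. Col1a1 was 5.31-fold lower in Differentiated cells (log2 fold change -2.41, SE 0.04) and edgeR returned an adjusted p of 0, below the smallest number it stores. In Lysfree cells it was 5.59-fold lower (-2.48, SE 0.09, edgeR adjusted p = 4.9e-21), and between the 2 cocktail groups its difference of -0.08 was not called (adjusted p = 0.45).

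Col1a2, the partner chain of type I, took another course. It measured 1336, 1222 and 1288 FPKM in Undifferentiated, 196, 203 and 199 in Differentiated and 403, 386 and 391 in Lysfree libraries, so the 3 groups were fully separated. Its fold change was -2.71 on the log2 scale in Differentiated cells and -1.66 in Lysfree cells (edgeR adjusted p = 5.6e-18), and it was 2.06-fold higher in Lysfree than in Differentiated cells (log2 1.05, SE 0.06, edgeR adjusted p = 2.5e-11). This last call lies close to the 2-fold threshold and was lost when genes needed 10 counts in every library (0.99) and in limma on log2(FPKM + 1) (0.98). Col3a1, the single chain of type III collagen, measured 1417, 1360.0 and 1319, then 343, 343 and 349.9, then 497, 473 and 484 FPKM. It fell in both cocktail groups (log2 -2.01 and -1.45), and its difference of 0.55 between them was under the fold threshold (edgeR adjusted p = 3.1e-07) although the ranges did not overlap.

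Type V chains, which join type I fibrils and set their thickness, did not move together. Col5a2 measured 180.4 to 197 FPKM in Undifferentiated, 51.9 to 54.2 in Differentiated and 74.6 to 80.5 in Lysfree libraries, and it fell in both cocktail groups (log2 -1.85 and -1.23). Col5a1 changed by -0.64 and -0.60, with libraries below the Undifferentiated range but under the fold threshold. Between the cocktail groups Col5a1 differed by 0.03, and by 0.19 without Lysfree 1 (edgeR adjusted p = 1.2e-09), also under that threshold. Col5a3 went the other way in Differentiated cells: its FPKM were 57.4, 54.8 and 52.8 in Undifferentiated, 108, 107 and 105 in Differentiated and 17.3, 29.2 and 29.1 in Lysfree libraries. Its Differentiated libraries were the highest and its Lysfree libraries the lowest, without overlap. The difference of 0.93 in Differentiated cells was just under the fold threshold, and Col5a3 was 4.04-fold lower in Lysfree than in Differentiated cells (log2 -2.01, SE 0.14, edgeR adjusted p = 1.6e-10). Against Undifferentiated cells it was called lower in Lysfree cells (-1.08), but without Lysfree 1 the value was -0.89 and the call was lost.

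Minor fibrillar chains were less abundant. Col11a1, a chain of type XI, measured 3.51, 2.90 and 3.29 FPKM in Undifferentiated, 0.309, 0.278 and 0.296 in Differentiated and 0.625, 0.597 and 0.695 in Lysfree libraries. It fell 11.2-fold in Differentiated cells and 4.89-fold in Lysfree cells, and it was 2.27-fold higher in Lysfree than in Differentiated cells (log2 1.18, SE 0.18, edgeR adjusted p = 1.3e-05). The call between the cocktail groups was lost in glmTreat and in limma on log2(FPKM + 1) (0.34) and log2(FPKM + 0.1) (0.90). Col27a1, a fibrillar chain of cartilage and other tissues, fell in all 3 comparisons, with means of 7.27 ± 0.349, 2.06 ± 0.0364 and 0.759 ± 0.249 FPKM (SD, n = 3). Its call in Lysfree against Differentiated cells (-1.37) was lost in glmTreat and in limma on log2(FPKM + 1) (-0.81). Col11a2 was called in none. Its difference between Lysfree and Undifferentiated cells turned from -0.05 to 0.20 without Lysfree 1 (edgeR adjusted p = 0.041), under the fold threshold. The 3.21 FPKM of Lysfree 1 lay below the 6.45 and 7.51 of the other Lysfree libraries. Of the sparse fibrillar chains, Col2a1, the cartilage collagen, had 5, 7 and 4 counts in Undifferentiated and 0 in each Differentiated library, which put it at least 1.55-fold lower against a floor of 3 counts per library. Col24a1 had at most 2 counts in any library.

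**Figure D3:**
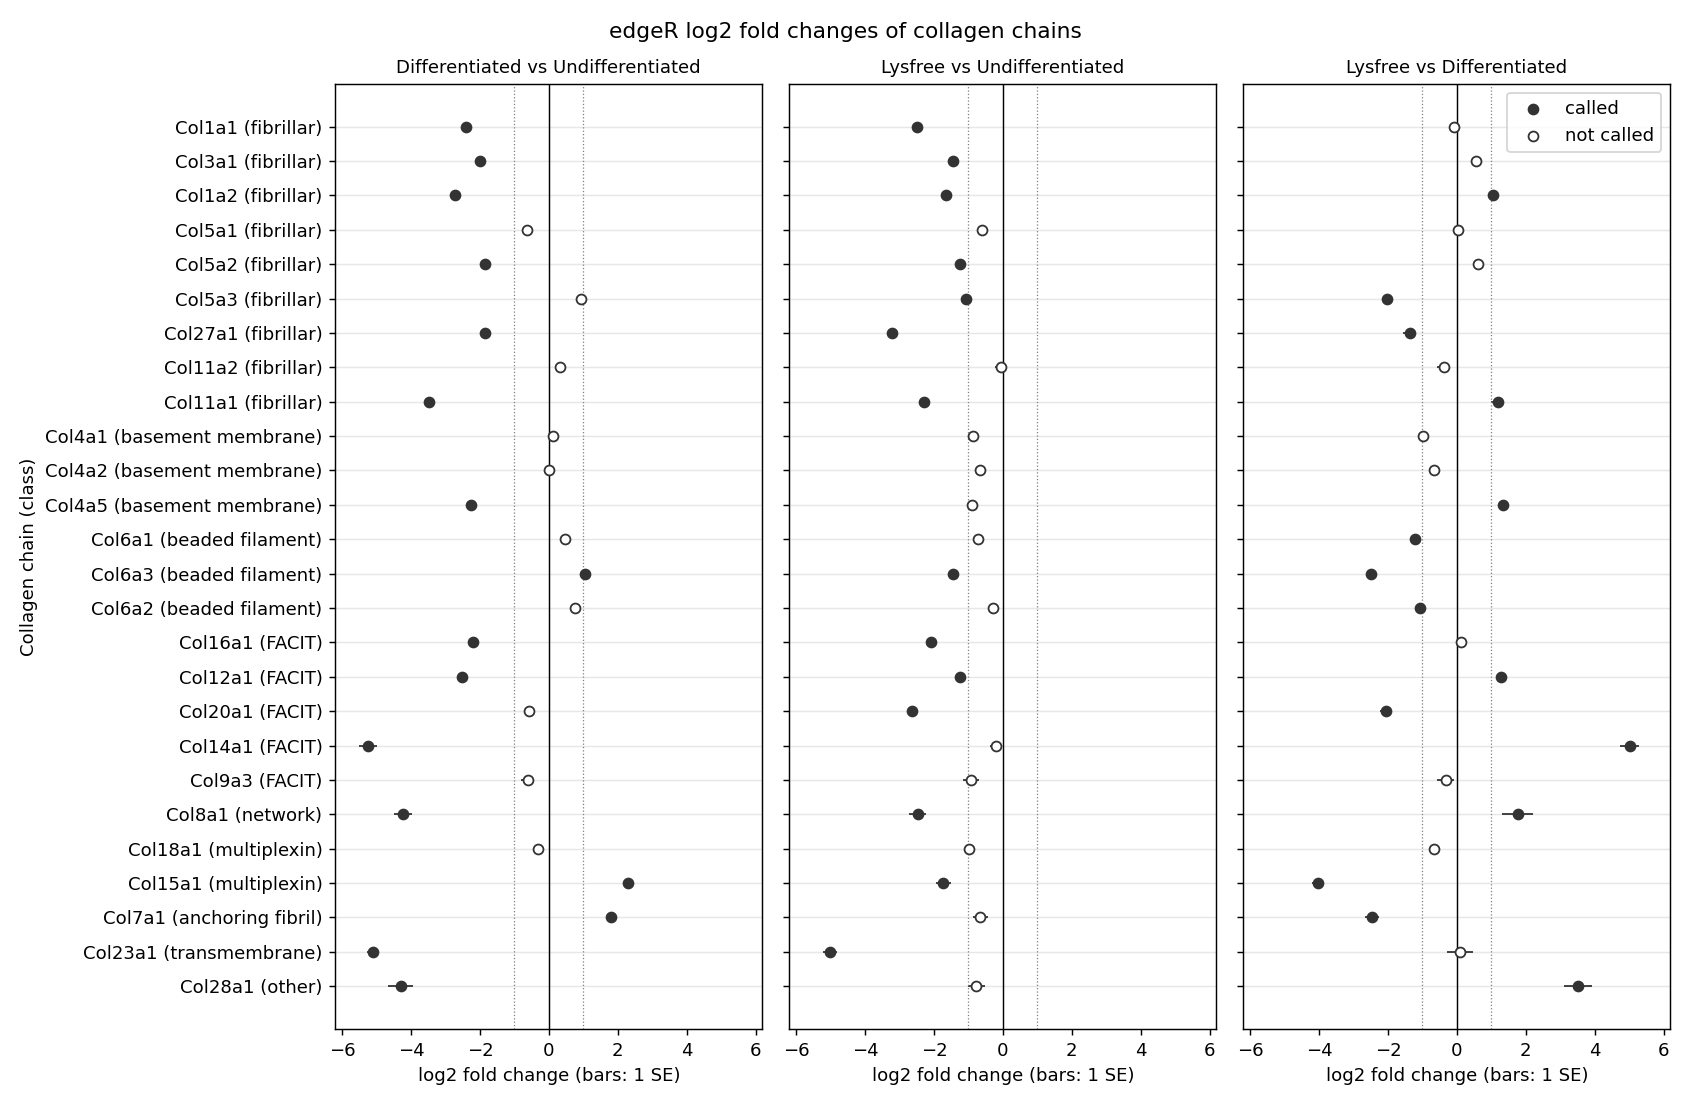
edgeR log2 fold changes (points) with 1 SE (bars) for 26 collagen chains in the 3 comparisons, with filled points called and dotted lines at 2-fold. Fibrillar Col1a1 lies at -2.41 and -2.48 against Undifferentiated cells and at -0.08 between the cocktail groups, while Col14a1 and Col28a1 lie at 5.01 and 3.52 in Lysfree against Differentiated cells.

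Basement membrane collagens split by gene pair. Of 6 chains, 2 fell in Differentiated and 1 in Lysfree cells against Undifferentiated cells, and 2 were higher in Lysfree than in Differentiated cells. The shares over all genes were 11.4%, 8.76% and 8.14%, and a count of 1 in 6 lies near its share. Type IV genes lie head to head in pairs, with Col4a1 (chr8:11198423-11312826, minus strand) and Col4a2 (chr8:11312805-11449287, plus strand, mm10) overlapping by 22 bases at their starts. Col4a1 measured 533, 478 and 491 FPKM in Undifferentiated, 553, 564 and 545 in Differentiated and 211, 291 and 295 in Lysfree libraries. Col4a2 measured 385, 354 and 362, then 378, 375 and 366, then 190.4, 239 and 247 FPKM. The Lysfree libraries were the lowest for both genes, while neither was called between Differentiated and Undifferentiated cells (log2 0.12 and -0.0023). Against Differentiated cells Col4a1 was 1.99-fold lower in Lysfree cells (log2 -0.99, SE 0.10, edgeR adjusted p = 3.7e-08), just under the fold threshold. It passed that threshold under several alternatives, DESeq2 among them (-1.02). Col4a2 differed by -0.66 (edgeR adjusted p = 2.4e-06).

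Col4a5 and Col4a6, the pair on chromosome X, behaved differently. Col4a5 measured 63.3, 57.2 and 58.7 FPKM in Undifferentiated, 13.4, 12.3 and 12.5 in Differentiated and 28.5, 32.6 and 32.3 in Lysfree libraries, which placed Lysfree cells between the other groups. It fell 4.77-fold in Differentiated cells and was 2.55-fold higher in Lysfree than in Differentiated cells (log2 1.35, SE 0.09, edgeR adjusted p = 1.3e-10). Col4a6 was sparse, with 32, 33 and 26 counts in Undifferentiated, 1, 1 and 0 in Differentiated and 2, 7 and 5 in Lysfree libraries. Per library total it was 40.2-fold higher in Undifferentiated than in Differentiated cells (95% exact interval 10.8 to 337, counting error only), and it was called lower in both cocktail groups. The remaining pair had at most 9 counts for Col4a3 and 18 for Col4a4 in any library. Col4a3 was called higher in Lysfree than in Differentiated cells on 9, 8 and 6 against 3, 1 and 1 counts (edgeR adjusted p = 0.048). That call was lost without Lysfree 1 (edgeR adjusted p = 0.13), Lysfree 2 (0.11), Lysfree 3 (0.059), Differentiated 2 (0.15) or Differentiated 3 (0.14), and with DESeq2 (0.091).

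Type VI collagen was highest in Differentiated cells in summed FPKM, at 1196 ± 23.9, 1966 ± 59.7 and 689.5 ± 39.0 in the 3 groups (SD, n = 3). Its 3 abundant chains, Col6a1, Col6a2 and Col6a3, assemble together, and each was highest in Differentiated and lowest in Lysfree libraries without overlap. Col6a3 (chr1:90765923-90843971, minus strand, mm10) measured 304, 265 and 292 FPKM in Undifferentiated, 609, 649.9 and 544 in Differentiated and 104, 99.7 and 105 in Lysfree libraries. It rose 2.06-fold in Differentiated cells (log2 1.04, SE 0.04, edgeR adjusted p = 3.3e-152), fell 2.70-fold in Lysfree against Undifferentiated cells and was 5.59-fold lower in Lysfree than in Differentiated cells (log2 -2.48, SE 0.08, edgeR adjusted p = 3.9e-16). The rise lay close to the threshold, and it was under it without Undifferentiated 2 (0.99) or Differentiated 2 (0.98).

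Col6a1 measured 642, 637 and 625 FPKM, then 894, 891 and 882, then 336, 383 and 390.0. Col6a2 measured 276, 273 and 273, then 470.4, 480.4 and 477, then 207, 215 and 229 FPKM. Their differences in Differentiated cells were 0.46 and 0.77, under the fold threshold, and both were called lower in Lysfree than in Differentiated cells (log2 -1.20 and -1.07, edgeR adjusted p = 2.5e-11 and 5.4e-11). The Col6a2 call was lost with library sizes alone (-0.99). Of the sparse type VI chains, Col6a4 had 7, 14 and 15 counts in Undifferentiated, 0, 3 and 1 in Differentiated and 4, 2 and 4 in Lysfree libraries and was called lower in both cocktail groups. Leaving out Undifferentiated 2, Undifferentiated 3, Lysfree 2 or Lysfree 3 ended its call in Lysfree cells (edgeR adjusted p = 0.052 to 0.21), as did DESeq2 (0.068). Col6a5 and Col6a6 had at most 3 counts in any library.

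FACIT collagens were called in both directions. In Differentiated against Undifferentiated cells 1 of 8 tested was higher and 3 lower (10.4% and 11.4% over all genes). The 1 higher, near that share, was the sparse Col9a1. In Lysfree against Undifferentiated cells 3 of 9 were lower (8.76%). In Lysfree against Differentiated cells 2 of 8 were higher and 2 lower (8.14% and 10.5%). Col14a1, a fibril-associated chain of dense connective tissue, measured 1.89, 1.27 and 1.35 FPKM in Undifferentiated, 0.0369, 0.0306 and 0.0530 in Differentiated and 1.27, 1.32 and 1.18 in Lysfree libraries. Its Lysfree and Undifferentiated ranges overlapped, with a log2 difference of -0.21 (SE 0.17, edgeR adjusted p = 0.40). Col14a1 had 4, 4 and 6 counts in the Differentiated libraries, so its fold changes against them rest on few reads. It fell 37.7-fold in Differentiated cells and was 32.3-fold higher in Lysfree than in Differentiated cells (log2 5.01, SE 0.28, edgeR adjusted p = 4.0e-12). Col12a1, a close relative of Col14a1, measured 32.0, 26.01 and 30.6, then 5.26, 5.85 and 4.47, then 12.1, 11.6 and 12.8 FPKM. Lysfree libraries lay between the other groups, and Col12a1 was called lower in both cocktail groups (-2.53 and -1.23) and higher in Lysfree than in Differentiated cells (1.29).

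Col16a1 measured 62.0 to 67.1 FPKM in Undifferentiated, 14.1 to 14.8 in Differentiated and 9.86 to 17.3 in Lysfree libraries. It fell to a like extent in both cocktail groups (-2.21 and -2.09), whose ranges overlapped. The overlap came from Lysfree 1 (9.86 FPKM), since Lysfree 2 and 3 (17.3 and 17.2) lay above the Differentiated range. Without Lysfree 1, Lysfree differed from Differentiated cells by 0.31 (edgeR adjusted p = 7.5e-09), under the fold threshold. Col20a1 measured 6.97, 5.80 and 6.98, then 4.10, 4.82 and 4.43, then 0.775, 1.203 and 1.09 FPKM, and it was called lower in Lysfree cells against both other groups (-2.63 and -2.05). A same-strand transcript, 9230112E08Rik, overlaps 741 bases of Col20a1 and had 1729, 1143 and 400 counts summed over the 3 groups in the same order, so its reads and those of Col20a1 may be shared. Type IX chains were scarce in these cells. Col9a3 was called in no comparison, and Col9a1, which had 2, 6 and 11 counts in Differentiated, 0, 2 and 0 in Undifferentiated and 1, 0 and 0 in Lysfree libraries, was called higher in Differentiated than in either other group (edgeR adjusted p = 0.0087 and 0.013). Both calls were lost without Differentiated 3 (edgeR adjusted p = 0.17 and 0.12). Col9a2, Col19a1 and Col22a1 had at most 5 counts in any library.

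Network collagens were scarce, and 2 of 3 fell in both cocktail groups (11.4% and 8.76% over all genes). Col8a1, a short-chain collagen of vessel walls and the cornea, measured 1.14, 1.06 and 0.925 FPKM in Undifferentiated, 0.0413, 0.0891 and 0.0316 in Differentiated and 0.160, 0.254 and 0.132 in Lysfree libraries. Its Differentiated libraries held 5, 13 and 4 counts. Col8a1 fell 18.9-fold and 5.53-fold in the cocktail groups and was 3.40-fold higher in Lysfree than in Differentiated cells (log2 1.77, SE 0.44, edgeR adjusted p = 0.0027). This last call was lost in glmTreat, which tests against a 2-fold change, and in limma on log2(FPKM + 1) (0.16) and log2(FPKM + 0.1) (0.87). With log2(FPKM + 1) both decreases were also under the fold threshold (-0.95 and -0.79). Its partner Col8a2 had 15, 13 and 11 counts in Undifferentiated, 1, 1 and 1 in Differentiated and 1, 2 and 6 in Lysfree libraries and was called lower in both cocktail groups. The call in Lysfree cells was lost without Lysfree 2 (edgeR adjusted p = 0.052) or Undifferentiated 3 (0.060). Col10a1, the collagen of hypertrophic cartilage, had at most 1 count in any library.

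Multiplexins, whose ends are released as endostatin-like fragments, lie in and beside basement membranes. Col15a1 (chr4:47208161-47313167, plus strand, mm10) measured 1.41, 1.49 and 1.42 FPKM in Undifferentiated, 7.08, 7.45 and 7.13 in Differentiated and 0.314, 0.405 and 0.536 in Lysfree libraries. It was highest in Differentiated and lowest in Lysfree cells, as Col6a3 was. Col15a1 rose 4.92-fold in Differentiated cells (log2 2.30, SE 0.10, edgeR adjusted p = 1.2e-124), fell 3.31-fold in Lysfree against Undifferentiated cells and was 16.4-fold lower in Lysfree than in Differentiated cells (log2 -4.03, SE 0.16, edgeR adjusted p = 2.9e-14). The decrease against Undifferentiated cells was under the fold threshold in limma on log2(FPKM + 1) (-0.78). Col18a1 was called in no comparison, at 45.8 ± 1.27, 37.2 ± 0.221 and 22.5 ± 5.09 FPKM (SD, n = 3). Its difference of -0.97 between Lysfree and Undifferentiated cells passed the fold threshold with edgeR's filter on low counts (-1.01), with 10 counts in every library (-1.04), in limma (-1.02 and -1.05), and without Lysfree 2 (-1.06) or Lysfree 3 (-1.09). Slc19a1, a folate carrier on the opposite strand, overlaps 8825 bases of it, and since no strand setting was given their reads cannot be told apart.

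Col7a1, the anchoring fibril chain of skin, measured 1.33, 1.18 and 1.15 FPKM in Undifferentiated, 4.50, 4.50 and 4.14 in Differentiated and 0.409, 0.999 and 0.847 in Lysfree libraries. It rose 3.51-fold in Differentiated cells and was 5.54-fold lower in Lysfree than in Differentiated cells (log2 -2.47, SE 0.20, edgeR adjusted p = 1.7e-09). Col23a1, a transmembrane collagen, fell in both cocktail groups to like levels: it measured 6.30, 5.73 and 5.74, then 0.158, 0.168 and 0.194, then 0.0992, 0.210 and 0.216 FPKM. Its decreases were 34.6-fold and 32.2-fold, and the cocktail groups overlapped. Col28a1, a chain with von Willebrand factor domains, measured 1.02, 0.809 and 0.828, then 0.0264, 0.0438 and 0.0631, then 0.406, 0.470 and 0.630 FPKM. Its Differentiated libraries held 2, 4 and 5 counts. Col28a1 fell 19.7-fold in Differentiated cells and was 11.5-fold higher in Lysfree than in Differentiated cells (log2 3.52, SE 0.41, edgeR adjusted p = 3.8e-07). Both calls were lost in limma on log2(FPKM + 1) (-0.85 and 0.52). The difference between Lysfree and Undifferentiated cells (-0.77) was under the fold threshold. Col17a1, a collagen of hemidesmosomes, had 6 to 16 counts in every library and was not called. Col25a1 had at most 3 counts.

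The calls of the 3 comparisons are set side by side here. Col1a2, Col8a1, Col11a1 and Col12a1 were lower in both cocktail groups and higher in Lysfree than in Differentiated cells. A set of 8 chains (Col1a1, Col3a1, Col4a6, Col5a2, Col6a4, Col8a2, Col16a1 and Col23a1) was lower in both cocktail groups and not called between them. Col4a5, Col14a1 and Col28a1 were lower in Differentiated cells alone and higher in Lysfree than in Differentiated cells, which does not show that Lysfree cells equalled Undifferentiated cells. Col6a3 and Col15a1 were higher in Differentiated and lower in Lysfree cells against both other groups. Col7a1 and Col9a1 were higher in Differentiated cells than in both others. Col5a3 and Col20a1 were lower in Lysfree cells against both other groups, and Col6a1 and Col6a2 were lower in Lysfree than in Differentiated cells alone. Col27a1 was lower in all 3 comparisons, Col2a1 lower in Differentiated cells alone, and Col4a3 higher in Lysfree than in Differentiated cells alone. The calls included none for 13 chains tested in all 3 comparisons, for 3 tested in only some of them and for the 2 with no count.

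These shifts changed which collagens dominated. In per-length FPKM the most abundant chain was Col1a1 in Undifferentiated (1887 ± 109), Col6a1 in Differentiated (889 ± 5.95) and Col3a1 in Lysfree cells (485 ± 11.9, SD, n = 3 each). Summed collagen FPKM was 7311 ± 284, 4209 ± 89.0 and 2731 ± 185. Fibrillar chains made up 68.8% ± 0.225, 29.2% ± 0.289 and 53.7% ± 1.64 of that sum in the 3 groups, and the ranges of libraries did not overlap. Type VI chains made up 16.4% ± 0.311, 46.7% ± 0.434 and 25.3% ± 0.422, and type IV chains 12.7% ± 0.178, 22.3% ± 0.148 and 19.1% ± 1.73. FACIT chains accounted for 1.42% ± 0.0156, 0.594% ± 0.0162 and 1.09% ± 0.104. These shares are descriptions of composition, in which a fall of one class raises the share of the others.

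**Figure D4:**
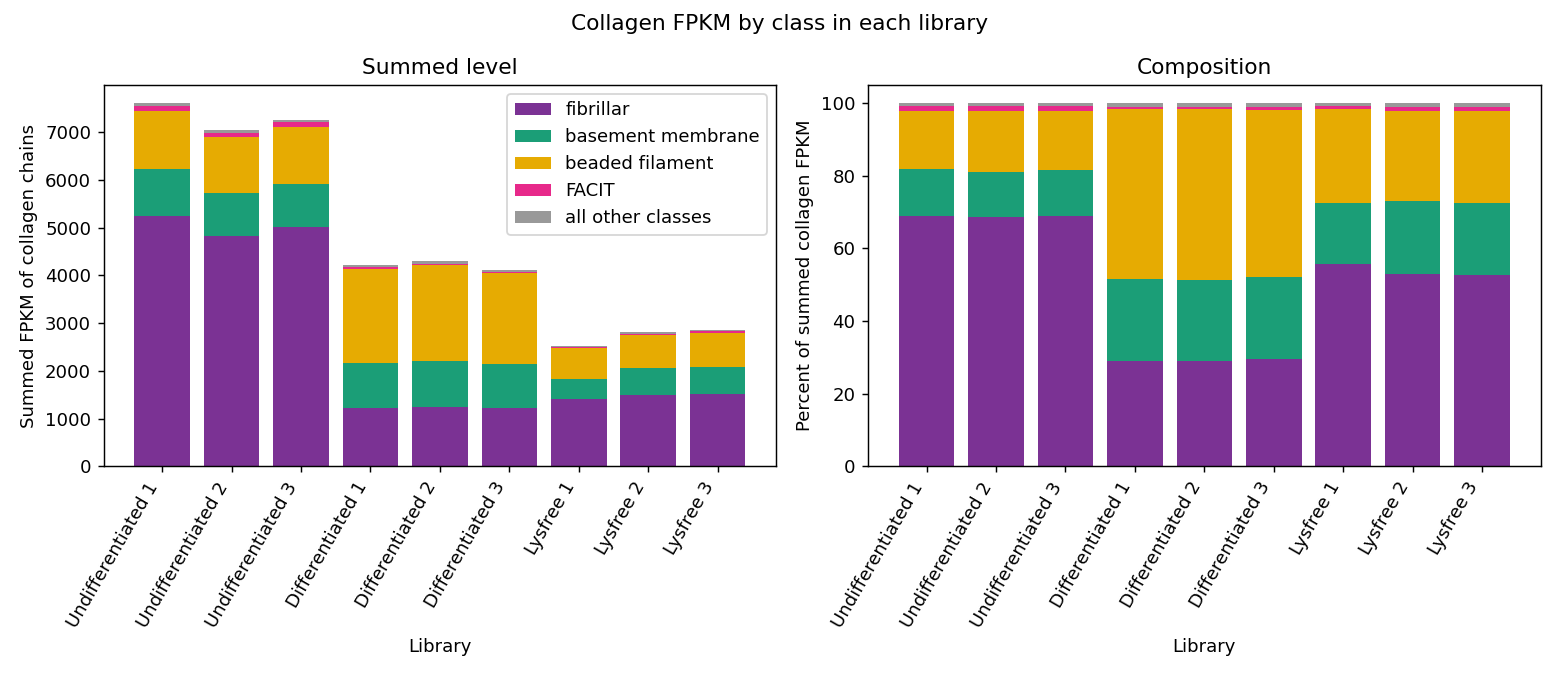
Stacked bars of collagen FPKM by class in each of the 9 libraries, as the summed FPKM (left) and as percent of that sum (right). Fibrillar chains take 68.5% to 68.9% of the sum in Undifferentiated, 29.0% to 29.5% in Differentiated and 52.5% to 55.6% in Lysfree libraries.

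Ratios between chains within a library do not depend on the library total. The usual type I molecule holds 2 Col1a1 chains and 1 Col1a2 chain. The ratio of Col1a1 to Col1a2 was 1.47 ± 0.0229 in Undifferentiated, 1.82 ± 0.0326 in Differentiated and 0.832 ± 0.0865 in Lysfree cells (SD, n = 3), and each Lysfree library had more Col1a2 than Col1a1 per length. The level of this ratio depends on the gene lengths behind FPKM (6563 bases for Col1a1, 12426 for Col1a2), while its change between groups does not. In raw counts Col1a2 exceeded Col1a1 in every library of all groups, so the side of 1 is not read against the chain numbers of the molecule. Col3a1 to Col1a1 was 0.725 ± 0.0417, 0.955 ± 0.0316 and 1.49 ± 0.167. Col5a1 to Col5a2 was 1.24 ± 0.0585, 2.86 ± 0.0543 and 1.91 ± 0.383, with Lysfree 1 at 1.47 and the other Lysfree libraries at 2.12 and 2.14.

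Ratios within types IV and VI were measured in the same way. Col4a1 to Col4a2 was 1.36 ± 0.0172, 1.48 ± 0.0196 and 1.17 ± 0.0599, and Col6a1 to Col6a2 was 2.31 ± 0.0227, 1.87 ± 0.0269 and 1.70 ± 0.0811. Libraries of different groups did not overlap in any of the 15 comparisons of these 5 ratios. The exact permutation test gave p = 0.1 for each (two-sided, 3 against 3 libraries, 0.1 after Benjamini-Hochberg adjustment over 15), which is the smallest p the design allows.

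**Figure D5:**
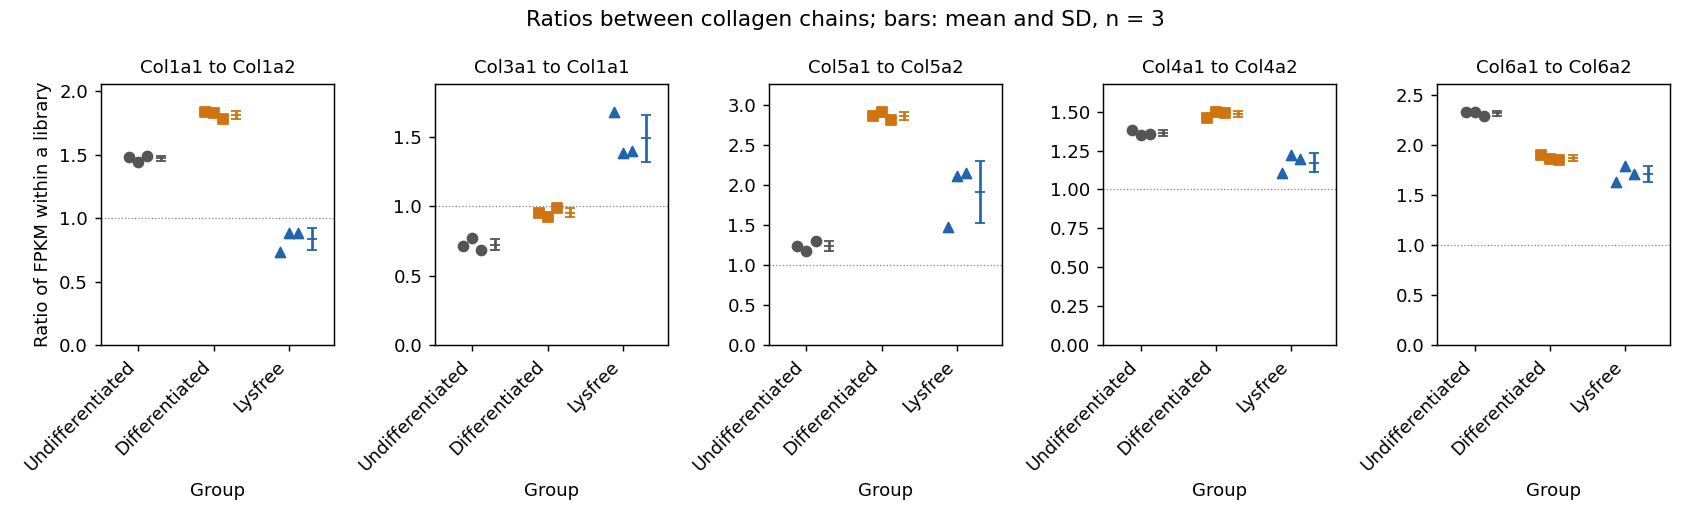
Ratios of FPKM between 2 chains within each library (points, 3 libraries per group) with the group mean and SD (bars), each panel starting at 0 and the dotted line at equal FPKM. Col1a1 to Col1a2 lies at 1.45 to 1.49 in Undifferentiated, 1.78 to 1.84 in Differentiated and 0.732 to 0.882 in Lysfree libraries.

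Demand for lysine was described from the coding sequences, since lysine was the amino acid withheld. Lysine codons (AAA and AAG) made up a median of 4.89% of codons over the 44 chains, against 5.36% over 21510 protein-coding genes. Among the 26 chains above 1 CPM they ranged from 3.15% in Col15a1 to 8.15% in Col28a1. Col1a1 had 55 lysine codons in 1453, Col1a2 48 in 1372 and Col3a1 61 in 1464, while Col6a3 had 156 in 3284. Within Gly-X-Y repeats, lysine stood in the third position, the one that can be hydroxylated, in 25 of 355 triplets of Col1a1, 70 of 436 of Col4a1 and 26 of 110 of Col6a2. Col15a1, with the lowest lysine share, was also the chain with the largest decrease in Lysfree against Differentiated cells among those above 1 CPM. Spearman's rho between lysine codon share and the log2 fold change of Lysfree against Differentiated cells was 0.38 over the 26 chains. These chains share libraries and are not independent, and no test was made.

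Transcript GC content ran along with the fold changes of the chains. Its rho with the log2 ratio of mean FPKM was 0.62 for Differentiated against Undifferentiated and -0.63 for Lysfree against Differentiated cells over the 26 chains, and 0.27 for Lysfree against Undifferentiated cells. Over all genes the values were -0.10, -0.12 and -0.27. With Lysfree 2 and 3 alone the value for Lysfree against Differentiated cells was still -0.63 over the chains. The part of GC content in these fold changes was not tested.

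Collagens are made with the help of a set of enzymes and chaperones, and 55 such genes in 7 lists were examined. In Differentiated against Undifferentiated cells 4 of 53 tested were called higher and 25 lower, in Lysfree against Undifferentiated cells 1 and 19 of 52, and in Lysfree against Differentiated cells 14 and 5 of 52. The shares over all genes tested were 10.4% higher and 11.4% lower, 5.52% and 8.76%, and 8.14% and 10.5%, and a count of 1 in a list of 5 to 10 genes lies near them. Cross-linking enzymes changed in most members: of 5 lysyl oxidases, 4 were lower and 1 (Loxl2) higher in Differentiated than in Undifferentiated cells. In Lysfree against Undifferentiated cells 4 were lower and 0 higher, with Loxl2 lower (log2 -1.37) and Loxl4 not called (0.48). Between Lysfree and Differentiated cells 2 were higher and 1 lower. Lox, which oxidises the lysines that become cross-links, averaged 468 ± 29.0, 20.04 ± 1.23 and 178 ± 23.04 FPKM in the 3 groups and was called in every comparison (log2 -4.57, -1.35 and 3.21). Loxl4 averaged 7.74, 1.54 and 10.4 FPKM, and Loxl2 went the other way at 0.151, 0.706 and 0.0566 FPKM.

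Among 10 prolyl hydroxylation genes, 1 was higher and 3 lower in Differentiated cells (10.4% and 11.4% over all genes), and 1 was higher in Lysfree than in Differentiated cells (8.14%). P4ha3, a prolyl 4-hydroxylase subunit, averaged 11.6, 0.369 and 3.65 FPKM in the 3 groups (log2 -4.99 in Differentiated cells and 3.37 between the cocktail groups). Of 5 lysyl hydroxylation and glycosylation genes, only Plod2 was called: this telopeptide lysyl hydroxylase averaged 8.21, 28.3 and 12.5 FPKM, higher in Differentiated cells (1.76) and lower in Lysfree than in Differentiated cells (-1.12). Folding and export genes gave 0 higher and 4 lower of 9 in Differentiated cells, with Creb3l1, a transcription factor that switches on collagen genes, at 118, 23.7 and 53.5 FPKM.

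Propeptide removal gave 1 higher and 4 lower of 6 tested in Differentiated cells and 3 higher of 6 in Lysfree against Differentiated cells. The procollagen peptidases Adamts2 (28.6, 3.00 and 9.01 FPKM) and Adamts14 and the enhancer Pcolce (544, 105 and 253 FPKM) were those 3. Collagen receptors gave 0 higher and 3 lower of 8 in Differentiated cells (10.4% and 11.4% over all genes) and 3 higher and 1 lower in Lysfree against Differentiated cells (8.14% and 10.5%), with Itga11, the integrin subunit of fibrillar collagen receptors, at 7.06, 0.562 and 5.04 FPKM. Mrc2, an endocytic collagen receptor, averaged 134, 25.4 and 79.1 FPKM. Collagen cleavage genes, inhibitors of the proteases included, gave 0 higher and 7 lower of 10 in Differentiated cells and 4 higher and 1 lower of 9 in Lysfree against Differentiated cells. Ctsk, a lysosomal protease that cuts collagen, averaged 81.7, 9.09 and 105 FPKM. Timp2, a protease inhibitor, averaged 382, 24.4 and 219 FPKM, and Mmp9, a gelatinase, averaged 9.63, 0.867 and 0.125 FPKM and was called lower in all 3 comparisons.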

How the data were processed

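The authors sequenced poly(A)-enriched libraries as read pairs, removed reads of low quality or with adaptors, and mapped the rest to mm10 with HISAT2 2.0.5 and counted them per gene with featureCounts 1.5.0-p3 (versions from the submitters' processing notes). The annotation release and strand setting were not given in the sources used here. The deposited counts are whole reads per gene, not normalized, and the deposited FPKM values, made by the authors, are scaled by gene length and library. Library totals were 15880144 to 21806693 counts, 0 columns were left unused, and no pair of libraries agreed within sampling noise.

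Counts were tested with edgeR 4.0.16 (TMM, quasi-likelihood) in R 4.3.3, 2 groups at a time, over genes with a count in any of the 6 libraries, and p-values were adjusted over all genes tested (Benjamini-Hochberg). DESeq2 1.42.0, the study's own tool, and limma 3.58.1 on log2(FPKM + 1) and log2(FPKM + 0.1) were alternatives, with other scalings, filters, thresholds and left-out libraries. The edgeR, DESeq2 and limma steps were tested on simulated data. FPKM carries no interval of its own, so levels are given as values per library. Ratios within a library used FPKM and exact permutation tests (scipy 1.17.1), with counts divided by gene length as the alternative. Intervals and floors cover counting error only.

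Chains with a mean of at least 1 CPM are given by library, and the other chains by counts. Pathway genes were named if above 1 CPM and called at least once, at most 3 per list, by the size of the change in Lysfree against Differentiated cells. Members and lists were chosen with earlier results of these data known. Lysine codons and transcript GC came from GENCODE vM21 coding sequences and transcripts, in place of the RefSeq proteins first planned. Promoters are RefSeq, GRCm38.p6.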

Additional observations from a re-analysis of the deposited data

How the results depend on the processing

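Over the 26 chains above 1 CPM and all alternatives (1320 values), 1233 kept direction and call, 44 gained a call, 24 lost it and 19 reversed. Of the 44 gained, 24 came from the setting with no fold threshold, which takes that threshold away. The count of chains higher in Differentiated than in Undifferentiated cells was 4, but 2 with glmTreat against 2-fold and 9 with no fold threshold, and 3 to 4 leaving out 1 library. Over all 24402 genes tested, 2545 were called higher, against 1745 with glmTreat and 5605 with no fold threshold. The count of chains lower was 17, but 10 when genes needed 10 counts in every library, where chains with fewer counts were not tested. It was 11 with limma on log2(FPKM + 1). Over all genes the counts lower were 2784 of 24402, then 1852 of 12328 and 1276 of 24402 in the same order. In Lysfree against Undifferentiated cells the count of chains lower was 17, but 27 with no fold threshold, and 16 to 18 leaving out 1 library. Over all 23994 genes tested, 2102 were called lower, and 4112 with no fold threshold. The count of chains higher in Lysfree than in Differentiated cells was 8, but 3 with 10 counts in every library, where chains with fewer counts were not tested. It was 4 with glmTreat, 3 with limma on log2(FPKM + 1), 4 with limma on log2(FPKM + 0.1), and 7 to 8 leaving out 1 library. Over all genes the counts higher were 1963 of 24130, then 1264 of 12086, and 1105, 823 and 1531 of 24130 in the same order. The count of chains lower was 9 and 9 to 10 leaving out 1 library, and 2544 of all 24130 genes were called lower with no library left out. The 15 ratio differences kept their direction throughout.

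Reversals concerned uncalled values near 0. Col4a2 in Differentiated against Undifferentiated cells was 0.0072 with all 9 libraries in a single fit, 0.025 with limma under either pseudocount, and -0.024 to 0.033 leaving out 1 library. Col11a2 in Lysfree against Undifferentiated cells was -0.30 to 0.20 leaving out 1 library. In Lysfree against Differentiated cells Col16a1 was -0.0020 with limma on log2(FPKM + 0.1) and -0.018 to 0.31 leaving out 1 library. Col5a1 was -0.0037 with filterByExpr, -0.024 with 10 counts in every library, -0.061 with limma under either pseudocount and -0.076 to 0.19 leaving out 1 library. Col23a1 was -0.021 with limma on log2(FPKM + 0.1) and -0.090 to 0.34 leaving out 1 library. Other causes were not tested.

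Replicate numbers did not pair the libraries: correlations of same-numbered deviations ran from -0.085 to 0.11. With the replicate number as a block, 3 chains were higher and 17 lower in Differentiated cells, 0 and 17 in Lysfree against Undifferentiated cells, and 7 and 9 in Lysfree against Differentiated cells. Over all genes tested with this block the counts were 2285 and 2552, 1207 and 1972, and 1821 and 2352. Col18a1 in Lysfree against Undifferentiated cells (-1.001) and Col4a1 in Lysfree against Differentiated cells (-1.01) then passed the fold threshold. Of the sparse chains, Col9a1 lost both its calls (edgeR adjusted p = 0.070 and 0.057), Col6a4 that in Lysfree against Undifferentiated cells (0.080) and Col4a3 that in Lysfree against Differentiated cells (0.11).

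Depth limits the 18 sparse chains: those called rest on at most 33 counts in a library, and several calls among them were lost without 1 library or with another tool. It also limits Col8a1, Col14a1 and Col28a1, which had at most 13, 6 and 5 counts in a Differentiated library.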
